A study of Mus musculus with 16 samples.

Results

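Genes of the cytotoxic lymphocytes, the natural killer (NK) cells and cytotoxic T cells that kill infected or transformed cells, were compared between 2 fat depots of the mouse, the white fat under the skin (sWAT) and the brown fat between the shoulder blades (BAT). The 8 genes were Gzma, Gzmb, Gzmk, Prf1, Nkg7, Klrd1, Klrk1 and Ncr1. Every probe set of the array whose annotation named exactly 1 of these genes was taken, which gave 9 of 45101 probe sets, with 2 probe sets for Prf1 and 1 for each of the other genes. 7 of the 9 probe sets were lower in BAT than in sWAT, and the 2 that did not pass the test belonged to Prf1 and Klrk1.

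RNA of both tissues from LACA (Laboratory Animal Centre A-strain) mice was hybridised to 16 Affymetrix mouse genome arrays, 8 for sWAT and 8 for BAT. The mice were labelled as males that received no treatment and ate standard chow, with no age given, and both tissues were taken from whole depots, so that a value is a sum over adipocytes, vessels and immune cells. The labels number 4 replicates in each tissue and give 2 arrays to each number, 1 titled biological and 1 titled technical, which were averaged. The methods describe 4 mice with both fat depots taken from each, while the labels do not tie a number to an animal. Each value is a log2 signal relative to the median of its probe set over the 16 arrays, so the tissues can be compared for 1 gene but the level of a gene cannot be compared with that of another.

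A cytotoxic lymphocyte carries granules that hold granzymes, serine proteases that trigger death inside the target cell, and perforin, encoded by Prf1, which forms pores that let them in. Nkg7 is a membrane protein of these granules that is needed for their efficient release. Klrd1 encodes CD94, which pairs with NKG2 proteins to read the nonclassical MHC molecule Qa-1. Klrk1 encodes NKG2D, an activating receptor for stress-induced ligands, and Ncr1 encodes NKp46, an activating receptor found mostly on NK cells and related innate lymphocytes. In adipose tissue such cells sit in the stroma and in the lymph nodes that are embedded in some depots.

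Some libraries stood apart in ways that touch the results. Xist, which is transcribed from the inactive X chromosome of female cells, was at 5.74, 6.26 and 6.36 in BAT replicates 1 to 3 but at only -0.258 in the remaining BAT replicate, number 4. The range in sWAT was -0.271 to -0.107. The mean of 3 Y-linked genes, Kdm5d, Uty and Eif2s3y, ran the other way, from -2.33 to -1.98 in BAT replicates 1 to 3. It was 0.184 in BAT replicate 4, close to the sWAT range of 0.198 to 0.394. Thus 3 of the 4 replicates labelled BAT went against the label of male mice, and by these genes the tissues that share a replicate number from 1 to 3 did not come from the same mouse. The difference within such a number is therefore a difference between replicates that share a label, and each member call that changes without the block is given beside its gene. The part of sex in any difference below was not tested beyond the values for replicate number 4, where the tissues had like values of both measures. On 2 arrays, the first of sWAT replicate 3 and the second of BAT replicate 1, the 5-prime probe sets of Gapdh and Actb were low against the 3-prime ones (-4.79 and -3.56 on the log2 scale, against -1.23 to 0.463 on the other arrays). The p-values and the SE of each difference rest on the spread of the 4 differences between replicates that share a number. They do not rest on the spread of replicates within a tissue. That spread was moderated, which means drawn toward the spread of all probe sets, or of all genes for the lists. An SE can therefore be smaller or larger than the 4 differences alone would give. The p-values come from a fit across all probe sets that held the replicate number as a block. They were adjusted by the Benjamini-Hochberg method, and a difference was called at an adjusted p under 0.05.

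Across the 9 probe sets the median difference, BAT minus sWAT, was -1.37 on the log2 scale, against 0.125 over all probe sets. The 7 probe sets called lower, Gzma, Gzmb, Gzmk, Prf1 1451862_a_at, Nkg7, Klrd1 and Ncr1, compare with 17.3% of all probe sets called lower. Of these, 6 were lower by at least 2-fold, against 9.56% of all probe sets. In 4 (Gzmk, Prf1 1451862_a_at, Nkg7 and Klrd1) every BAT replicate lay below every sWAT replicate, against 17.7% of all probe sets. None, 0 of 9, was called higher by limma, against 15.1% of all probe sets. Of those not called, Prf1 1450335_at differed by 0.36 and Klrk1 by -0.72. With the methods' paired test, which takes the spread of each probe set alone, the call was kept by Klrd1, and with each array scaled to all probe sets of Gapdh and Actb it was kept by Gzma and Nkg7. The share of all probe sets called in those settings is not given here. In tissue RNA, fewer cytotoxic cells and less of these RNAs in each cell cannot be told apart.

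**Figure D1:**
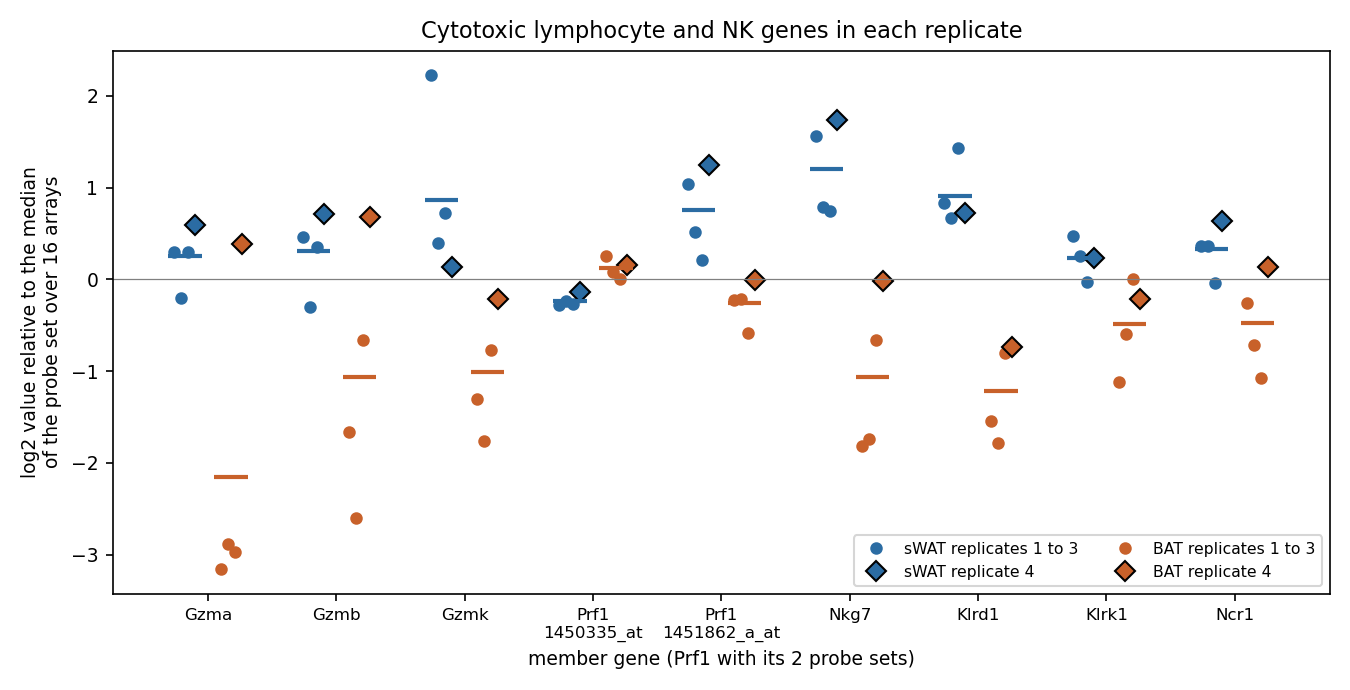
Log2 value of each member probe set relative to its median over 16 arrays (y axis) in 4 sWAT replicates (blue) and 4 BAT replicates (orange), with replicate 4 of each tissue as an outlined diamond and the mean of each tissue as a bar. BAT replicate 4 sits at 0.39 for Gzma and 0.68 for Gzmb, among the sWAT values, while the other BAT replicates of Gzma lie between -3.16 and -2.89.

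Granzyme A is a trypsin-like protease that is abundant in resting NK cells. In sWAT, Gzma was at 0.30, -0.20, 0.30 and 0.60 in replicates 1 to 4. In BAT it was at -3.16, -2.89, -2.97 and 0.39. Replicates 1 to 3 of BAT were thus far below every sWAT replicate, and replicate 4 of BAT was above 3 of the 4 sWAT replicates. The 2 arrays of BAT replicate 4 gave 0.431 and 0.349, so that the high value was present on both. The mean was 0.25 ± 0.33 in sWAT and -2.15 ± 1.70 in BAT (SD, n = 4), a difference of -2.40 ± 0.50 (SE, adjusted p = 0.0107), or 5.29-fold. Without replicate 4 the difference was -3.14 (adjusted p = 0.000197), within replicate number 4 it was -0.21, and without replicate 1 the call was lost (-2.05, adjusted p = 0.0613).

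Granzyme B, which cleaves after aspartate and activates caspases in the target cell, had a similar spread. In sWAT, Gzmb was at 0.46, -0.30, 0.35 and 0.71. In BAT it was at -1.67, -2.60, -0.66 and 0.68. The tissues overlapped through BAT replicate 4, which was second only to sWAT replicate 4 among the 8 values. The mean was 0.31 ± 0.43 in sWAT and -1.06 ± 1.40 in BAT (SD, n = 4), a difference of -1.37 ± 0.37 (SE, adjusted p = 0.0273), or 2.58-fold. The call was lost with no block for the replicate number (adjusted p = 0.0927), without replicate 1 (adjusted p = 0.122) and without replicate 2 (adjusted p = 0.0867), and within replicate number 4 the difference was -0.03.

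Granzyme K is a trypsin-like granzyme that marks a subset of memory CD8 T cells. In sWAT, Gzmk was at 2.22, 0.39, 0.72 and 0.13. In BAT it was at -1.31, -1.76, -0.77 and -0.21. The tissues did not overlap, and the distance between them was smallest between the replicates numbered 4 (-0.34) and largest between those numbered 1 (-3.53). The difference was -1.88 ± 0.45 (SE, adjusted p = 0.0182), or 3.68-fold. Without replicate 2 the adjusted p was 0.0501, and without replicate 4 the difference was -2.39 (adjusted p = 0.00368).

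Because the T-box factors Eomes and Tbx21 and the RUNX factor Runx3, which are known to drive these genes in NK cells and CD8 T cells, were measured on the same arrays, the bases before the start of the members were read for their core letters. RefSeq promoters of GRCm38.p6 were at hand for 7 of the 8 genes, and Klrd1 had no entry. The 250 bases before the start are shown 5-prime to 3-prime for the granzymes and Nkg7, the members with folds of at least 2 that also have an entry and a single reading on the array. Capitals mark AGGTGT or its reverse complement ACACCT (T-box) and TGTGGT or its reverse complement ACCACA (RUNX), searched on both strands. No marked match overlaps another.
Gzma, chr13:113100982-113101231, minus strand: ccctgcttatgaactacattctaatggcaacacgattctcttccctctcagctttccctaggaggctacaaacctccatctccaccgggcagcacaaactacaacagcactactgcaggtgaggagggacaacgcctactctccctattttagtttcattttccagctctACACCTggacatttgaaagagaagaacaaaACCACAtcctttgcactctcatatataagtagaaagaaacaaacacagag
Gzmk, chr13:113180966-113181215, minus strand: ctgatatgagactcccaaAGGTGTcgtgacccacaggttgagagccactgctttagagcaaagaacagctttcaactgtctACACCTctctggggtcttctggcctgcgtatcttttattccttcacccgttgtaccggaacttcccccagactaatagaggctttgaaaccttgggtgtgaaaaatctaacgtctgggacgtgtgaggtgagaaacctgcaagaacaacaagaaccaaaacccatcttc
Nkg7, chr7:43436888-43437137, plus strand: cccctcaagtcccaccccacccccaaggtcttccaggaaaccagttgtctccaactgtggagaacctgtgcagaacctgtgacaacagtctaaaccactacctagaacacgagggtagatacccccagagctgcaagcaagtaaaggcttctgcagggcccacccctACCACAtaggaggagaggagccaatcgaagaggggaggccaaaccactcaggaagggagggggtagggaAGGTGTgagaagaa
Gzmb, chr14:56262335-56262584, minus strand: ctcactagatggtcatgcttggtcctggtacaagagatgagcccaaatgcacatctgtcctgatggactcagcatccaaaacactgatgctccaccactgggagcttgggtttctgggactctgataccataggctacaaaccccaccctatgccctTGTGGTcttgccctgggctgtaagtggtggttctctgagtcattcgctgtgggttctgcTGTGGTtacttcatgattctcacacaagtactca
AGGTGT was found on either strand in 4 of the 7 member windows (Gzma, Gzmk, Nkg7 and Prf1), and 11.8% of the 32851 windows in the table hold it. TGTGGT was found in 6 of the 7, all but Gzmk, and 14.0% of all windows hold it. In Gzma the T-box letters lie 80 to 75 bases before the start, and in Nkg7 they lie 14 to 9 bases before it. Gzmb holds RUNX letters at 93 to 88 and at 34 to 29 bases before the start, and no AGGTGT in this window. These matches describe letters only, and binding was not measured.

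Perforin was read by 2 probe sets that went opposite ways. With 1451862_a_at, Prf1 in sWAT was at 1.04, 0.52, 0.21 and 1.25, and in BAT at -0.22, -0.22, -0.59 and -0.01. Every BAT value lay below every sWAT value, and the difference was -1.01 ± 0.16 (SE, adjusted p = 0.00284), or 2.02-fold. With 1450335_at, Prf1 in sWAT was at -0.28, -0.24, -0.27 and -0.14, and in BAT at 0.26, 0.08, 0.01 and 0.15, so that here every BAT value lay above every sWAT value. That difference, 0.36 ± 0.13 (SE), did not pass the test (adjusted p = 0.0767) but did with no block for the replicate number (adjusted p = 0.0194). The mean over both probe sets differed by -0.33 ± 0.12 (SE, adjusted p = 0.0606 over 18194 genes). That mean passed the test with arrays centred on their medians (-0.39, adjusted p = 0.0357), on the second arrays alone (-0.52, adjusted p = 0.0343) and without the 2 arrays of low 5-prime signal (-0.47, adjusted p = 0.0225), and on the first arrays alone it was -0.14 (adjusted p = 0.528). The array of low 5-prime signal in sWAT replicate 3 read -0.837 with 1451862_a_at where its partner read 1.264, a gap of 2.10. On the first arrays alone, which include that array, the difference was -0.68 and the call was lost (adjusted p = 0.106). Without the 2 arrays of low 5-prime signal the difference was -1.27 (adjusted p = 0.00162).

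Nkg7 had the smallest p among the granule members. In sWAT it was at 1.56, 0.79, 0.74 and 1.74, and in BAT at -1.81, -1.74, -0.66 and -0.02. The tissues did not overlap, and BAT replicates 1 and 2 were the lowest. The difference was -2.27 ± 0.31 (SE, adjusted p = 0.00179), or 4.81-fold, and between the replicates numbered 4 it was -1.76. The low 5-prime array of sWAT replicate 3 read -0.032 and its partner 1.513.

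Of the receptors, Klrd1 had the smallest adjusted p of all 9 probe sets. In sWAT it was at 0.83, 0.67, 1.43 and 0.72, and in BAT at -1.54, -1.79, -0.80 and -0.74. All 4 replicate numbers gave a lower value in BAT, from -2.46 to -1.46, and the tissues did not overlap. The difference was -2.13 ± 0.19 (SE, adjusted p = 0.000349), or 4.37-fold. The 2 arrays of BAT replicate 1 read -2.458 and, on the array of low 5-prime signal, -0.620.

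Ncr1 was at 0.36, 0.36, -0.04 and 0.63 in sWAT and at -0.26, -0.71, -1.07 and 0.13 in BAT. BAT replicate 4 lay above sWAT replicate 3, so the tissues overlapped, although BAT was lower within each replicate number. The difference was -0.81 ± 0.16 (SE, adjusted p = 0.00748), or 1.75-fold. On the second arrays alone it was -0.63 and the call was lost (adjusted p = 0.0565), as it was with scaling to the 3-prime probe sets of Gapdh and Actb (adjusted p = 0.0832).

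Klrk1 was at 0.47, 0.25, -0.03 and 0.24 in sWAT and at -1.12, -0.60, 0.00 and -0.22 in BAT. In replicate number 3 the tissues differed by 0.03 and in the other 3 numbers BAT was lower. The difference, -0.72 ± 0.26 (SE), did not pass the test (adjusted p = 0.071), and its 95% confidence interval ran from -1.32 to -0.11. It passed with no block for the replicate number (adjusted p = 0.034), without replicate 3 (adjusted p = 0.0271), without the 2 arrays of low 5-prime signal (adjusted p = 0.00949) and on the second arrays alone (adjusted p = 0.0407). On the first arrays alone it was -0.53 (adjusted p = 0.244), and without replicate 1 it was -0.42 (adjusted p = 0.199).

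**Figure D2:**
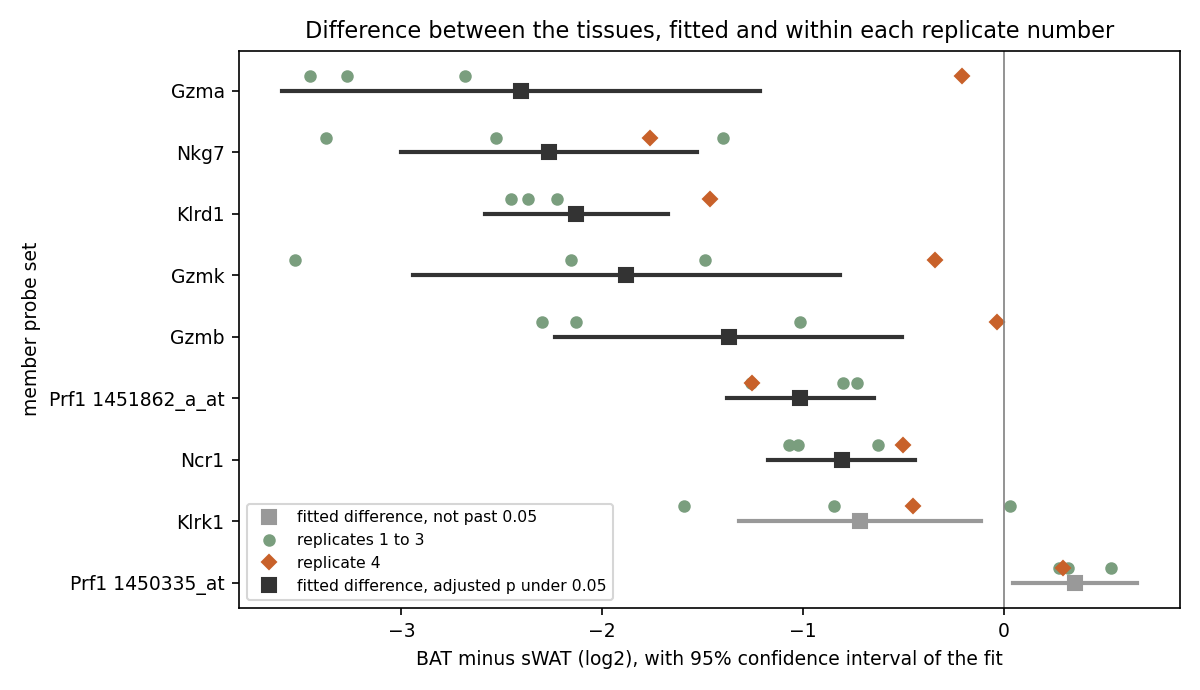
BAT minus sWAT of each member probe set on the log2 scale (x axis), as the fitted difference (square) with its 95% confidence interval (black where called, grey where not) and, just above, the difference within each replicate number (circles for 1 to 3, diamond for 4). The diamonds of Gzma (-0.21), Gzmb (-0.03) and Gzmk (-0.34) lie near 0, and those of Nkg7 (-1.76) and Klrd1 (-1.46) do not.

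BAT replicate 4 was the highest of the 4 BAT replicates for 7 of the 9 member probe sets and lay within the range of the sWAT replicates for 3, Gzma, Gzmb and Ncr1. It stood 3.39 above the mean of the other BAT replicates for Gzma, 2.32 for Gzmb, 1.07 for Gzmk, 1.38 for Nkg7 and 0.63 for Klrd1. The mean over the member probe sets was 0.02 in BAT replicate 4, between -1.36 and -0.83 in the other BAT replicates, and between 0.25 and 0.78 in sWAT. BAT replicate 4 is also the BAT replicate whose sex-linked genes resembled those of sWAT. Its value for the brown adipocyte markers, 1.56, was the lowest of the BAT replicates (3.29 to 3.47 in the others), and that for skeletal muscle fibre markers, 4.01, was the highest (2.37 to 3.37). Several other lists were also at their highest BAT level in this replicate. The lists of B cell markers and of ligands of the members were instead highest in BAT replicate 1. The gamma delta T cell list was highest in BAT replicate 2. Macrophage markers were at 0.0861 (-1.09 to -0.183 in the other BAT replicates, 0.00369 to 0.485 in sWAT), mast cell markers at 0.575 (-0.385 to -0.0583 in the other BAT replicates), neutrophil markers at 0.861 (-0.472 to -0.160) and general adipocyte markers at 0.163 (-0.943 to -0.534). T cell markers were at -0.853 (-1.38 to -1.02 in the other BAT replicates) and B cell markers at -1.93 (-2.35 to -1.70). With 1 such replicate, sex, the make-up of that dissection and other traits of that replicate cannot be told apart.

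**Figure D3:**
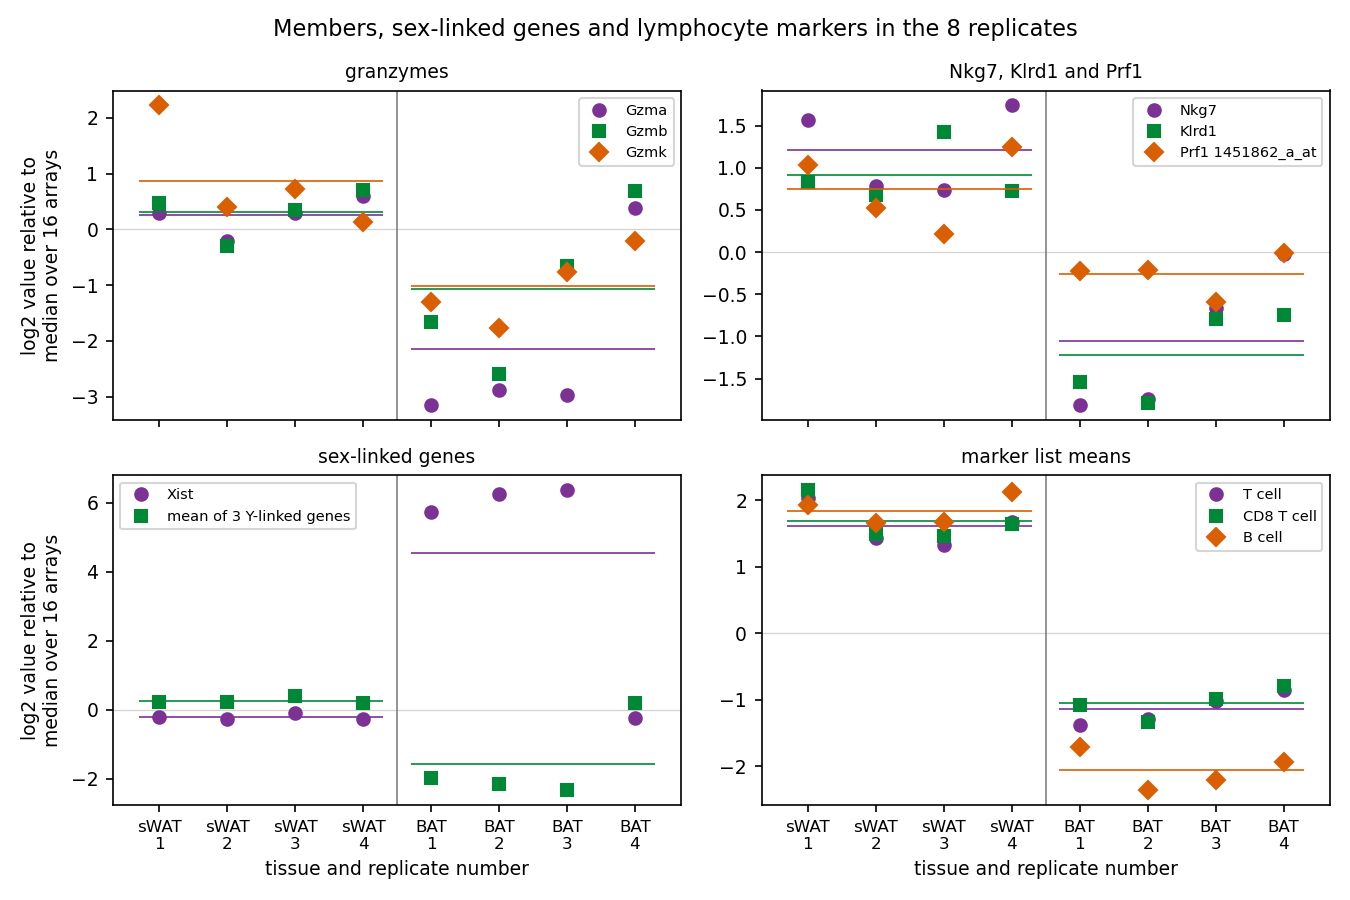
Log2 values relative to the median over 16 arrays (y axes) in the 4 sWAT and 4 BAT replicates (x axes) for the granzymes, for Nkg7, Klrd1 and Prf1, for sex-linked genes and for the means of lymphocyte marker lists, with a line at the mean of each tissue. In BAT replicate 4, Gzma (0.39), Xist (-0.258) and the Y-linked genes (0.184) lie at the sWAT level, whereas the T cell mean (-0.85) and the B cell mean (-1.93) lie below every sWAT replicate.

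The gene whose 8 replicate values lay nearest to those of Gzma, by root mean square difference among 18194 genes, was Eif2s3y (0.326), a Y-linked translation factor gene. Next came Nnat (0.368), the imprinted gene neuronatin, and Aif1 (0.555), a gene of macrophages. Nearest to Gzmb were Resf1 (0.431), Klrc1 (0.464), which encodes an NKG2 partner of CD94, and 2410006H16Rik (0.477). Gzmk lay nearest to Cenpl (0.428), Zfp850 (0.439) and Cenpi (0.465). Nkg7 lay nearest to Plek (0.208), the platelet and leukocyte protein pleckstrin, Lig1 (0.254) and Tnfaip8l2 (0.261), and Klrd1 to Gpr65 (0.205), Mis18a (0.233) and Gem (0.249). These distances describe likeness over 8 values that are split mainly by tissue.

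The other genes of cytotoxic cells were taken in 4 lists: granule proteins and death ligands, receptors with their adaptors and cytokines, transcription factors, and ligands of the members. Of 99 genes listed, 81 had a probe set of their own. Of these, 46 were lower in BAT (17.5% of all 18194 genes were), 4 were higher (21.0% of all genes were) and 31 did not pass the test. With no block for the replicate number, 42 were lower and 6 higher. Their median difference was -0.79, against 0.15 over all genes. Within replicate number 4 alone it was -0.68.

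Among 22 granule genes, 11 were lower and the others did not pass (median -0.51). The lower genes with the widest differences were Serpinb6b, a serpin inhibitor (-3.34 ± 0.19 SE, adjusted p = 6.15e-05), Cst7, encoding the cathepsin inhibitor cystatin F (-2.84 ± 0.22 SE, adjusted p = 0.000147), and Ctsw, a cathepsin of NK and CD8 T cells (-2.25 ± 0.25 SE, adjusted p = 0.000627). Cst7 was at 1.99, 1.19, 1.29 and 1.90 in sWAT and at -1.65, -1.33, -1.05 and -0.94 in BAT. Replicate 4 was the highest of the BAT values and lay below every sWAT value. Gzmm, another granzyme, was lower by 2.41-fold (-1.27 ± 0.25 SE, adjusted p = 0.00673). Gzmc, Gzmd, Gzme, Gzmf, Gzmg and Gzmn, the cluster beside Gzmb whose products are closely similar and whose probe sets may read each other, differed by -0.22 to 0.22 and none was called. Ifng, encoding interferon gamma, was lower (-0.94 ± 0.26 SE, adjusted p = 0.0288), but its tissues overlapped and within replicate number 4 it differed by 0.04. Its call was also lost without replicate 1 (adjusted p = 0.101), 2 (adjusted p = 0.0878) or 3 (adjusted p = 0.0707). Fasl, the death ligand, differed by -0.41 ± 0.19 (SE, adjusted p = 0.13), by -0.20 without replicate 1 and by 0.11 within replicate number 4. Its probe sets differed by -0.76 and -0.06.

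Of 42 receptor and signalling genes, 22 were lower and 2 higher (median -0.68). Of the lectin receptors in this list, only Klrc1 and Klrb1f (-0.59 ± 0.19 SE, adjusted p = 0.0499) were called lower. Klra1, Klra2, Klra7, Klra8, Klrb1a, Klrb1b, Klrc2, Klrc3, Klre1 and Klrg1 were not called. Their differences ran from -0.37 (Klre1) to 0.30 (Klra8), on both sides of no difference. Sh2d1a, the adaptor SAP of the SLAM receptors, fell by 4.18 ± 0.36 (SE, adjusted p = 0.000229), Il18r1, a chain of the interleukin 18 receptor, fell by 3.23 ± 0.17 (SE, adjusted p = 4.87e-05), and the chemokine gene Ccl5 fell by 2.95 ± 0.32 (SE, adjusted p = 0.000553). Ccl5 ran from 0.81 to 1.28 in sWAT and from -2.87 to -0.76 in BAT, where replicate 4 was the highest. Klrc1, the partner of Klrd1, was lower by 3.01-fold (-1.59 ± 0.35 SE, adjusted p = 0.012), as the mean of probe sets that differed by -2.68 and -0.50. Its BAT values were -1.53, -1.97, -1.01 and 0.04, the last close to the lowest sWAT value of 0.22, and without replicate 1 its call was lost (adjusted p = 0.0539). Hcst, the adaptor DAP10 that signals for NKG2D, fell by 2.10 ± 0.19 (SE, adjusted p = 0.00029). Tyrobp, the adaptor DAP12, which macrophages also use, fell by 1.69 ± 0.21 (SE, adjusted p = 0.00102). Il2rb, a receptor chain for interleukins 2 and 15, fell by 1.43 ± 0.19 (SE, adjusted p = 0.00129) and Xcl1, a chemokine of NK and CD8 T cells, fell by 1.03 ± 0.13 (SE, adjusted p = 0.00107). The Il2rb value is the mean of probe sets that differed by -2.53 and -0.336. The genes that were higher in BAT were S1pr5, a sphingosine phosphate receptor of NK cell egress that other cells express as well (1.59 ± 0.27 SE, adjusted p = 0.00385), and Il15ra, which presents interleukin 15 from other cells (0.94 ± 0.18 SE, adjusted p = 0.00664). Klre1, an NK lectin receptor, differed by -0.37 ± 0.16 (SE, adjusted p = 0.116), with -0.74 (adjusted p = 0.0316) on the first arrays and 0.00299 (adjusted p = 0.989) on the second. Within replicate number 4 it differed by 0.05.

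Of 15 transcription factors, 13 were lower and 1 higher (median -1.91). Eomes, at 1.95, 0.58, 1.64 and 1.57 in sWAT and -1.44, -1.64, -0.57 and -1.19 in BAT, differed by -2.64 ± 0.21 (SE, adjusted p = 0.000177). Tbx21, encoding T-bet, was at 1.67, 0.65, 0.98 and 1.39 in sWAT and at -0.89, -1.60, -1.32 and -0.59 in BAT, a difference of -2.27 ± 0.13 (SE, adjusted p = 6.68e-05). Within replicate number 4, Eomes differed by -2.76 and Tbx21 by -1.98, beside -0.21 for Gzma. Runx3 differed by -1.48 ± 0.13 (SE, adjusted p = 0.000236), as the mean of probe sets that went opposite ways (-3.59 and 0.63). Irf8, which myeloid cells and B cells also use, fell by 3.44 ± 0.31 (SE, adjusted p = 0.000263), and Stat4, the mediator of interleukin 12 signals, fell by 3.11 ± 0.18 (SE, adjusted p = 6.06e-05). Nfil3, which NK cells need for their development and which many other cells express, was higher in BAT (0.90 ± 0.15 SE, adjusted p = 0.00304). Only 2 of 10 ligand genes had a probe set of their own: Ulbp1, a ligand of NKG2D, was higher (0.51 ± 0.13 SE, adjusted p = 0.0224), and H60c was not called (0.05 ± 0.19 SE, adjusted p = 0.832). The call of Ulbp1 was lost without replicate 1 (adjusted p = 0.0707), 2 (adjusted p = 0.102) or 4 (adjusted p = 0.057).

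**Figure D4:**
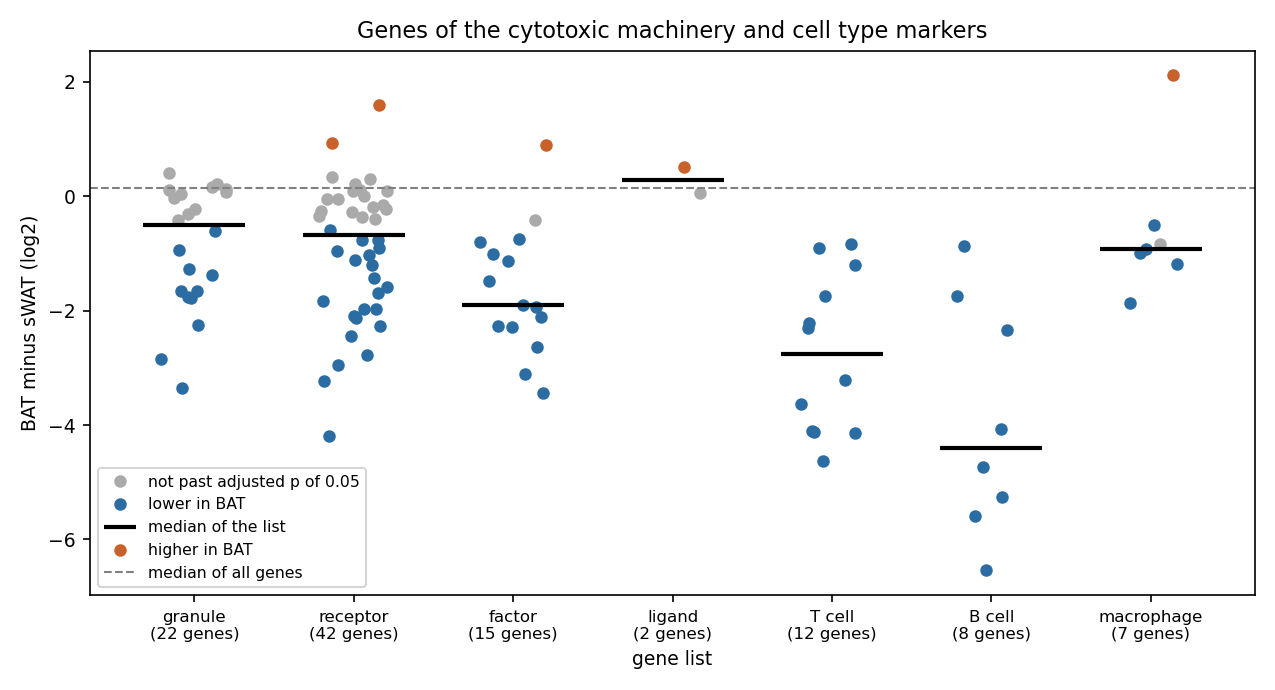
BAT minus sWAT of each gene on the log2 scale (y axis) in the 4 lists of cytotoxic cell genes and in 3 marker lists (x axis), blue where lower in BAT, orange where higher and grey where not called, with a black bar at each list's median and a dashed line at the median of all genes, 0.15. The medians are -0.51 for granule, -0.68 for receptor and -1.91 for factor genes, and -2.76 for T cell and -4.40 for B cell markers.

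Marker lists of lymphocytes and of other cells were compared in the same way. Over all genes, 17.5% were called lower in BAT and 21.0% higher. The marker lists share genes with the lists above. Eomes of the factor list and Crtam of the receptor list are also CD8 T cell markers, and Cd247 of the receptor list is also a T cell marker. All 12 T cell markers with a value were lower in BAT (median -2.76), with list means of 1.32 to 2.04 in sWAT and -1.38 to -0.85 in BAT. Zap70 and Cd247 are means of probe sets that disagree in sign, from -2.34 to 0.59 and from -3.48 to 0.24. All 4 CD8 T cell markers (median -2.57) and all 8 B cell markers (median -4.40) were also lower. The B cell list had means of 1.66 to 2.12 in sWAT and -2.35 to -1.70 in BAT. Of 6 markers of lymph node vessels and stroma, 4 were lower (median -0.69), led by Glycam1, a mucin-like glycoprotein of lymph node venules, at -7.91 ± 0.15 (SE, adjusted p = 2.28e-06). Macrophage markers had 5 of 7 lower and 1 higher (median -0.92), but only 2 lower without replicate 1, and 3 lower without replicate 2 or with no block. Neutrophil markers had 1 of 6 lower (0 with no block and without replicate 3 or 4, and 2 without replicate 2). Mast cell markers had 1 of 7 higher (with 2 lower without replicate 4). Under the main fit neither of these lists exceeded the shares over all genes. Gamma delta T cell markers had 1 lower and 1 higher of 3. Of the fat cell markers, all 6 brown adipocyte genes were higher (median 4.58), as the label of the tissue says, and 1 of 4 general adipocyte genes was lower (2 with no block or without replicate 4). All 8 skeletal muscle fibre genes were higher in BAT (median 5.59). The part of other lymphocytes, of lymph node tissue and of muscle in the differences of the members was not tested.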

How the data were processed

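RNA of white and brown fat of LACA mice was hybridised to 16 Affymetrix arrays. The deposited values are log2 signals that the authors made in GeneSpring with RMA, quantile normalization and a baseline set at the median of each probe set, so that signal over background is unknown. The genome build of their annotation is not given in the sources used here. The platform annotation named 1 gene for 34958 probe sets, several for 932 and none for 9211. After the pair of arrays of every replicate had been averaged, the tissues were compared in R 4.3.3 with the lmFit and eBayes functions of limma 3.58.1, over 45101 probe sets for the members and over 18194 genes, each the mean of its probe sets, for the lists. The replicate number was a block, since the methods describe a paired test on tissues of the same animals, although the sex-linked genes show that numbers 1 to 3 do not mark the same mouse in both tissues. Deviations of equally numbered replicates correlated at -0.23, 0.0644, -0.348 and 0.231, so the data do not bear the pairing out, and calls of members and counts of lists that change without the block are given in the text. The named genes were the members, the 3 genes with the widest called difference per list and direction, a set of genes that define NK cells and cytotoxic T cells, and the 3 nearest genes of each member gene lower by at least 2-fold. Further genes of the lists are given in the text for context and are not among the named genes. The members and lists were chosen with earlier results of these data known. The 14 alternatives covered the block, the arrays, the test, the scaling, the variance prior and the replicates left out, and the code was tested on simulated data.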

Additional observations from a re-analysis of the deposited data

Results flagged for a closer look

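In 64 groups of 4 replicates (members and named genes of the lists in each tissue), 2 held a replicate whose gap to the nearest of the others was too large a share of the range, and chance gives about 1 in 20. Gzma in BAT replicate 4 was at 0.39, where the other BAT replicates lay between -3.16 and -2.89 (gap over range 0.924). S1pr5 in BAT replicate 2 was at 1.05, where the others lay between 0.397 and 0.481 (gap over range 0.871).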

How the results depend on the processing

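With no block for the replicate number, in place of the paired design, the member probe sets called lower stayed at 7 and those called higher went from 0 to 1; 6 of the 9 calls were the same. The count called lower was 1 (Klrd1) with the methods' paired test, which rests on the spread of each probe set alone, and 2 (Gzma and Nkg7) with scaling to all Gapdh and Actb probe sets, chosen after seeing the data, which brings in the 5-prime probe sets of the 2 low arrays. Leaving out each replicate number in turn gave 5 to 8 probe sets lower. Over the lists, the genes called lower went from 46 to 17 with that scaling, and those called higher from 4 to 0 with it and to 1 with the paired test. The shares of all probe sets and genes called in these settings are not given here. The counts given here therefore do not tell a general loss of calls from a loss particular to these genes. For Prf1, the probe set with the widest difference gave -1.01 where the mean of both gave -0.33. Of the 23 named genes of the lists, 6 lost their call with the paired test and 10 with that scaling, and none of the 23 changed its call without the block. Without the block, the receptor genes called lower went from 22 to 18 and those called higher from 2 to 3, and granule genes called higher from 0 to 1 and lymph node genes called higher from 0 to 1. The macrophage genes called lower went from 5 to 1 with the paired test and to 0 with that scaling. Within replicate number 4 alone Ifng turned to 0.038, Fasl to 0.108 and Klre1 to 0.0527, and on the second arrays alone Klre1 turned to 0.00299. Centring on array medians and a robust prior changed no call of a member probe set, and centring brought the mean of Prf1 past the threshold. The number of replicates, 4 per tissue with the 2 arrays of each averaged, limits the precision.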
